A study of Mus musculus with 8 samples.

Results

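AP-1 is a family of dimeric transcription factors, and the 10 genes described here encode members of it: Fos, Fosb, Fosl1, Fosl2, Jun, Junb, Jund, Atf3, Batf and Maff. They were taken by name from a table of 27179 genes measured by RNA sequencing in lymphoid tissue inducer (LTi) cells of the mouse, and all 10 were found. The set was chosen because Atf3 and Junb had been seen at higher levels in one of the 2 tissues sampled and Fos had not. The difference between the tissues is therefore given for these genes as a description, with no test. The effect of genotype was not used in the choice and was tested.

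The cells came from Peyer's patches (PP), lymphoid organs in the wall of the small intestine, and from the connective tissue under the gut epithelium, the small-intestinal lamina propria (LP). In each tissue there were 2 libraries of Tcf7fl/fl mice that carry Cre, labelled Tcf7-KO, and 2 of Tcf7+/+ mice, so that 8 libraries formed 4 groups. All mice were of the C57BL/6 strain. In the Tcf7-KO mice the loxP-flanked gene Tcf7, which encodes the transcription factor TCF-1, is open to deletion by the Cre recombinase in cells that make it. Whether the Tcf7+/+ mice carried Cre, how old the mice were and how many gave each library are details not given here. The sort took live cells without lineage markers that had CD127 and CCR6 on their surface and lacked KLRG1, NK1.1 and NKp46. Nothing says that the 2 libraries of a group came from separate mice, so p-values measure the spread between these libraries, which may be technical.

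AP-1 factors carry a basic region that touches DNA and a leucine zipper that pairs 2 proteins. Proteins of the Jun group can pair with each other or with a Fos protein, whereas Fos proteins need a partner. ATF3, BATF and MAFF are relatives with the same kind of zipper: ATF3 is induced by stress signals, BATF pairs with Jun proteins and acts together with IRF4 or IRF8 in lymphocytes, and MAFF is a small Maf protein without an activation domain. Several of these genes are immediate early genes, whose transcripts appear rapidly after a stimulus without new protein synthesis. In type 3 innate lymphoid cells, to which LTi cells belong, cytokines such as IL-22 and IL-17A are made after stimulation.

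The values are RPKM, read numbers scaled by gene length and by the mapped reads of the library, so they can be compared between genes. The depth, estimated from the value of a single read, was between 38.2 and 44.1 M reads a library, and between 6365 and 8433 genes a library reached 1 RPKM. This number was lowest in PP Tcf7+/+, with 6411 and 6365 genes. It was 8103 and 8039 in PP Tcf7-KO and 7437 to 8433 in the LP libraries. Of the markers of the labelled cell type, Ccr6 had 89.3 and 165 RPKM in LP Tcf7-KO, 325 and 225 in LP Tcf7+/+, 334 and 398 in PP Tcf7-KO and 597 and 319.6 in PP Tcf7+/+. Il7r, which encodes CD127, had 206 to 385 RPKM in LP and 251 to 454 in PP. The 15 LTi markers, all detected, summed to 3325 to 3884 RPKM in LP and 6522 to 7237 in PP. Their sum was thus lower in every LP library than in any PP library. Single markers could go the other way, as Tnfsf11 did, with 546 to 931 RPKM in LP and 32.9 to 175 in PP. Of the genes for proteins that the sort excluded, Ncr1, which encodes NKp46, was at 0 in all libraries. Klrb1c, which encodes NK1.1, had 32.8 RPKM in replicate 1 of PP Tcf7+/+ and 8.42 in replicate 2 of PP Tcf7-KO, and Klrg1 had 10.7 in replicate 1 of LP Tcf7+/+, while both were under 1 RPKM in all other libraries. At 0 throughout were also C1qa, C1qb, C1qc, S100a8 and S100a9 among the 12 myeloid markers, of which 5 reached 1 RPKM in any library, and Col1a1, Col1a2 and Pdgfra among the 10 stromal and endothelial markers, of which 2 did. The myeloid markers summed to 0.299 to 99.9 RPKM in LP and 0.772 to 65.3 in PP. The stromal and endothelial ones summed to 24.0 to 54.4 RPKM in LP and 40.8 to 161 in PP. Nearly all of this stromal and endothelial sum was Pecam1, with 24.0 to 54.3 RPKM in LP and 40.6 to 161 in PP. The 10 T cell markers, each at 1 RPKM in some library, summed to 173 to 305 RPKM in LP and 459 to 812 in PP. Most of this was Trbc1 and Trbc2 together, of which Trbc2 had 112 to 172 RPKM in LP and 298 to 497 in PP. Cd3e had 0.195 to 14.3 RPKM in LP and 0.179 to 56.3 in PP, and Trac 0.384 to 24.6 and 0.363 to 44.0. The 15 epithelial markers, each at 1 RPKM in some library, summed to 213 to 455 RPKM in LP and 150.1 to 775 in PP. The summed level of 10 B and plasma cell markers, nearly all of it Igkc, was 17322, 15663, 15938 and 25370 RPKM in the LP libraries and 5657, 5188, 12350 and 12196 in the PP libraries, in the same order of groups. The part of these cell types in the differences described below was not tested. The mitochondrial genome gave 13.4% and 13.6% of all RPKM in PP Tcf7-KO, against 3.06% to 5.06% in the other 6 libraries. Tcf7 had 237 and 215 RPKM in LP Tcf7-KO against 229 and 246 in LP Tcf7+/+, and 355 and 337 in PP Tcf7-KO against 243 and 85.4 in PP Tcf7+/+. The log2 fold change of Tcf7 was -0.07 ± 0.48 in LP and 1.26 ± 0.48 in PP (limma adjusted p 1 and 0.365), so no reduction of its transcript was seen in the libraries labelled Tcf7-KO and the genotype rests on the label. A value for the whole gene does not show whether the flanked exons were lost, and the sources used here do not say which these are.

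The stretch of DNA before the start of transcription is where AP-1 genes are known to be controlled by other factors, and the windows of 5 members are shown. Atf3, Junb and Fos are the genes on which the set was picked, Jun was distributed in the opposite way, and Maff is the member with a window that holds the complete cyclic AMP response element. The sequences are from RefSeq on GRCm38.p6, run 5′ to 3′ on the strand of the gene, and cover 250 bases before to 50 bases after an annotated start. RefSeq gave 11 such windows for 9 of the 10 genes, 3 of them for Maff. Capitals mark the cyclic AMP response element TGACGTCA, its half-site TGACG and the TATA box TATAAA, on either strand.
Atf3, chr1:191183284-191183583, minus strand: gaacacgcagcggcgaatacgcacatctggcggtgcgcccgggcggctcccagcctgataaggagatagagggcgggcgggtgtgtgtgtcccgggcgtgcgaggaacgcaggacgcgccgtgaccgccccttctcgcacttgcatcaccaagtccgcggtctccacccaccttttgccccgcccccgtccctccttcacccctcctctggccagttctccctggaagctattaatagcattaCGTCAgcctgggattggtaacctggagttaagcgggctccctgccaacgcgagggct
Junb, chr8:84978699-84978998, minus strand: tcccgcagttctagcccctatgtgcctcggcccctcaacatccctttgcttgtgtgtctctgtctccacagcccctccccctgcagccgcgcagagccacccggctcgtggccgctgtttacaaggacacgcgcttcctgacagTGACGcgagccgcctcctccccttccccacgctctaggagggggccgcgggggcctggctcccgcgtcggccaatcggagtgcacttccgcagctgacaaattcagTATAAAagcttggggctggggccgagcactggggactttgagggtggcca
Jun, chr4:95052173-95052472, minus strand: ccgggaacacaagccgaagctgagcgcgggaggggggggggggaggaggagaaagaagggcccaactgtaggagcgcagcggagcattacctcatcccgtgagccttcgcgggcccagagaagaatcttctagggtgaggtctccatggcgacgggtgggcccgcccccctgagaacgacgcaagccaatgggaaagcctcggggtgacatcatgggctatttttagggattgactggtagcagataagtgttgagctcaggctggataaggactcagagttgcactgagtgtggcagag
Fos, chr12:85473640-85473939, plus strand: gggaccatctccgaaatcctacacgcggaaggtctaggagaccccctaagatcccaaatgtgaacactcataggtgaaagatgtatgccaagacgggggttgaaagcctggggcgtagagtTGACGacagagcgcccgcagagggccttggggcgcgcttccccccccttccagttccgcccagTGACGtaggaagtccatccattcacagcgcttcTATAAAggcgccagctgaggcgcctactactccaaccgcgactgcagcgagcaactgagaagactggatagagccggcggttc
Maff, chr15:79347270-79347569, plus strand: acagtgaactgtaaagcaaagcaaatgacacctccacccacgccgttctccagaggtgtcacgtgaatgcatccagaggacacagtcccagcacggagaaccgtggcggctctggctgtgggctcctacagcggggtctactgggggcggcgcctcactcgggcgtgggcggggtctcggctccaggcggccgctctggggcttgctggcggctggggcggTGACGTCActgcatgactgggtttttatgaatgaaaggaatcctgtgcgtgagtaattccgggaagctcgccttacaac

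Positions of these letters are counted from the annotated start, with bases before it negative. In the Fos window the half-sites began at -129 and -66 and a TATA box began at -33. The Atf3 window had a half-site at -7, written here as its reverse complement CGTCA. The Junb window had one at -106 and a TATA box that began at the annotated start itself. The complete element of Maff began at -29 and contains 2 overlapping half-sites, one on each strand. Among all 11 windows, the half-site was found in 7, which belong to 6 genes (Atf3, Fosb, Junb, Fos, Batf and Maff). Of 32851 windows of mouse genes, 20.8% held the half-site, 1.79% the complete element and 13.6% the TATA box. The AP-1 site TGACTCA, which 5.20% of all windows hold, was in none of the 11, nor was the TCF/LEF motif CTTTGAT or CTTTGAA, which 8.65% hold, or the CArG box bound by serum response factor, which 1.63% hold. The half-site and TATA box were searched after the other 4 motifs had been. For the cyclic AMP response element and the AP-1 site only the exact letters were searched. Near matches, such as TGACATCA in the Jun window, were therefore not counted. A match describes letters in the window and shows no binding, and no match concerns these windows only.

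Among the Fos genes, Fos was abundant in both tissues and the other 3 were mostly found in LP. Fos (Entrez Gene 14281, chr12:85473890-85477274, plus strand, 4 exons) encodes the founding partner of Jun. It had 650.0 and 869 RPKM in LP Tcf7-KO, 1467 and 1222 in LP Tcf7+/+, 2056 and 1706 in PP Tcf7-KO and 1366 and 1244 in PP Tcf7+/+. The LP and PP ranges overlapped in Tcf7+/+ cells, whereas in Tcf7-KO cells both LP libraries lay below both PP libraries.

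Fosb (14282, chr7:19302696-19310118, minus strand, 4 exons) encodes a close relative of Fos that can also activate transcription. It had 411 and 345 RPKM in LP Tcf7-KO, 433 and 432 in LP Tcf7+/+, 100.4 and 72.6 in PP Tcf7-KO and 72.7 and 50.4 in PP Tcf7+/+. Every LP library lay above every PP library, and the mean RPKM over the 4 LP libraries was 5.48 times that over the 4 PP libraries. The level of Fosb relative to Fos in the same library was 0.633 and 0.397 in LP Tcf7-KO, 0.295 and 0.354 in LP Tcf7+/+, and between 0.0405 and 0.0532 in the 4 PP libraries.

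Fosl2 (14284, chr5:32136472-32157840, plus strand, 4 exons) encodes FRA2, which lacks the strong activation domain of Fos. It had 134 and 73.0 RPKM in LP Tcf7-KO, 104 and 102 in LP Tcf7+/+, 6.96 and 4.07 in PP Tcf7-KO and 3.20 and 2.14 in PP Tcf7+/+, a ratio of mean RPKM of 25.2 between LP and PP. Fosl1 (14283, chr19:5447698-5455938, plus strand, 4 exons) encodes FRA1, the other member of that pair. It had 0.0558 and 2.42 RPKM in LP Tcf7-KO and 12.1 and 10.2 in LP Tcf7+/+. The PP libraries had 0.0304 and 0.0146 RPKM in Tcf7-KO and 0.0302 and 0.0133 in Tcf7+/+, so Fosl1 was near the limit of detection there and no ratio is given. It also passed the filter on low values (a minimum of 1 RPKM reached in 2 or more libraries, which kept 10541 genes) through LP libraries alone.

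Among the Jun genes, Junb and Jun were distributed in opposite ways. Junb (16477, chr8:84976909-84978748, minus strand, 1 exon) encodes a Jun protein that activates weakly on many promoters and can oppose Jun. It had 9650 and 7624 RPKM in LP Tcf7-KO, 8075 and 7367 in LP Tcf7+/+, 2170 and 1979 in PP Tcf7-KO and 2956 and 2695 in PP Tcf7+/+. All LP libraries lay above all PP libraries, with a ratio of mean RPKM of 3.34.

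Jun (16476, chr4:95049036-95052222, minus strand, 1 exon) encodes c-Jun, the strongest activator of the group. It had 1316 and 376 RPKM in LP Tcf7-KO, 580.0 and 597 in LP Tcf7+/+, 2338 and 2326 in PP Tcf7-KO and 2004 and 1876 in PP Tcf7+/+. All LP libraries lay below all PP libraries, with a ratio of mean RPKM of 0.336. The 2 LP Tcf7-KO libraries lay on either side of the LP Tcf7+/+ libraries.

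As a result, the ratio of Junb to Jun within a library was 7.33 and 20.3 in LP Tcf7-KO, 13.9 and 12.3 in LP Tcf7+/+, 0.928 and 0.851 in PP Tcf7-KO and 1.47 and 1.44 in PP Tcf7+/+. Both values of a library share its depth, so this ratio does not depend on the scaling between libraries. Jund (16478, chr8:70697739-70700616, plus strand, 1 exon), the Jun gene known for steady expression in resting cells, had 211 and 100.4 RPKM in LP Tcf7-KO, 133 and 174 in LP Tcf7+/+, 49.1 and 138 in PP Tcf7-KO and 17.1 and 58.4 in PP Tcf7+/+. Its LP and PP ranges overlapped through 1 PP Tcf7-KO library. The exons of Junb overlap those of Prdx2 on the opposite strand, those of Jun overlap Junos, those of Jund overlap Gm11175 and those of Fosl1 overlap Ccdc85b. Smart-seq2 libraries do not mark the strand, so reads from the overlapped exons of a pair cannot be told apart. Prdx2 had 84.1 to 219 RPKM over the 8 libraries, far below Junb. Ccdc85b had 0.140 and 0.104 RPKM in LP Tcf7-KO and 1.58 and 7.28 in LP Tcf7+/+, where Fosl1 had 12.1 and 10.2. In PP, Ccdc85b had 32.2 and 0.0678 RPKM in Tcf7-KO and 10.4 and 13.2 in Tcf7+/+. Junos and Gm11175 had no values, so the same comparison could not be made for Jun and Jund.

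The relatives outside the Fos and Jun groups differed among themselves. Atf3 (11910, chr1:191170296-191183333, minus strand, 4 exons) had 633 and 501 RPKM in LP Tcf7-KO, 1083 and 825 in LP Tcf7+/+, 3.20 and 4.45 in PP Tcf7-KO and 22.5 and 27.9 in PP Tcf7+/+. All LP libraries lay above all PP libraries, and the ratio of mean RPKM between LP and PP was 148 in Tcf7-KO cells and 37.8 in Tcf7+/+ cells. Of the members other than Fosl1, Atf3 had the largest such ratio over all libraries, 52.4.

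Maff (17133, chr15:79346621-79359078, plus strand, 3 exons) had 110 and 51.0 RPKM in LP Tcf7-KO, 80.2 and 54.8 in LP Tcf7+/+, 11.6 and 13.7 in PP Tcf7-KO and 51.5 and 45.7 in PP Tcf7+/+. The ratio of mean RPKM between LP and PP was 6.36 in Tcf7-KO cells and 1.39 in Tcf7+/+ cells, and the ranges over all LP and all PP libraries overlapped. Batf (53314, chr12:85686720-85709087, plus strand, 3 exons) had 28.2 and 111 RPKM in LP Tcf7-KO, 130 and 60.6 in LP Tcf7+/+, 52.5 and 191 in PP Tcf7-KO and 192 and 162 in PP Tcf7+/+. Its replicates lay far apart in 3 of the 4 groups, and the LP and PP ranges overlapped.

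**Figure D1:**
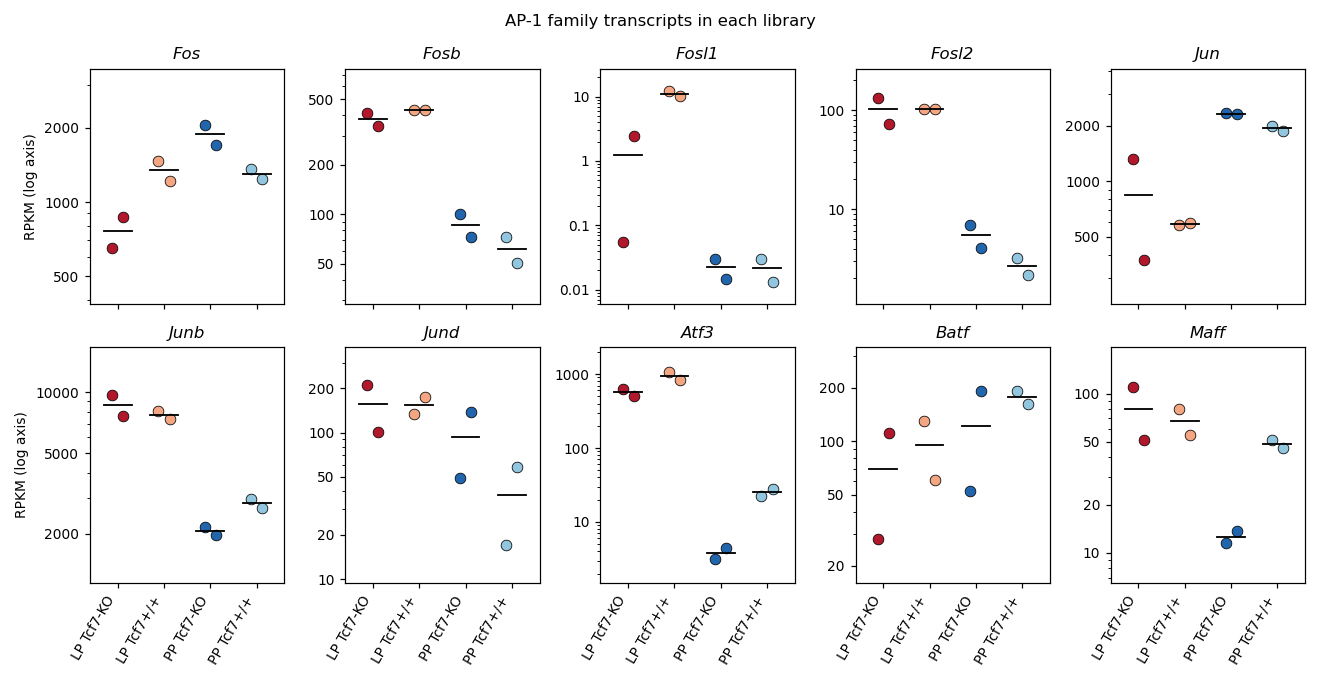
RPKM of the 10 AP-1 family genes in each of the 8 libraries, on a log axis that differs between panels. Points are libraries and lines are the means of the 2 libraries of a group. Fosb, Fosl1, Fosl2, Junb and Atf3 lie higher in all LP libraries than in any PP library, and Jun lies lower. Fosl1 is near the limit of detection in replicate 1 of LP Tcf7-KO and in all PP libraries.

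In all, 5 of the 10 genes had every LP library above every PP library (Fosb, Fosl1, Fosl2, Junb and Atf3), a pattern shown by 6.54% of the 10541 genes kept, and 1 had the reverse pattern (Jun), shown by 7.05%. The members were picked with this contrast in view, so nothing is read from these shares. Fosl1 passed the filter through LP libraries alone, so it could not have shown the reverse pattern. Its place here and in the Tcf7-KO count below rests on values near the limit of detection. These were 0.0558 RPKM in replicate 1 of LP Tcf7-KO and 0.0304 in replicate 1 of PP Tcf7-KO. In the Tcf7+/+ libraries alone, 7 members had both LP libraries above both PP libraries, the same 5 with Jund and Maff, and Jun and Batf had both below. In the Tcf7-KO libraries alone, 6 lay above, the 5 with Maff, and Fos and Jun lay below. The background shares were 26% above and 21.4% below in Tcf7+/+ cells and 17.5% above and 28.1% below in Tcf7-KO cells. The median log2 fold change between LP and PP over the 10 members was 1.63, against -0.10 over all genes kept. In bulk RNA, more cells that express a gene and more RNA per cell cannot be told apart. Immunoglobulin genes took 10.4% to 17.3% of the summed RPKM in LP and 2.83% to 6.43% in PP. With these and the mitochondrial genes taken out of the total, the log2 fold change between LP and PP was 6.14 for Atf3, 1.86 for Junb and -0.53 for Fos, against 6.03, 1.75 and -0.64 with them.

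The order of the 10 levels also differed between groups. Junb had the highest mean level in LP Tcf7-KO (8637 ± 1433 RPKM), in LP Tcf7+/+ (7721 ± 501) and in PP Tcf7+/+ (2825 ± 185; SD, n = 2 each), in each case without overlap with the next gene. In PP Tcf7-KO, Jun was first with 2332 ± 8.08 RPKM, above Junb with 2074 ± 135 without overlap, while Junb and Fos, with 1881 ± 247, overlapped. In LP Tcf7-KO, Jun (846 ± 665) and Fos (760 ± 155) overlapped, followed by Atf3, Fosb and Jund without overlap between neighbours. Jund, Fosl2, Maff and Batf overlapped there, each with its neighbour in the order. In LP Tcf7+/+, Fos, Atf3, Jun, Fosb, Jund and Fosl2 followed Junb without overlap between neighbours. In PP Tcf7+/+, Jun, Fos and Batf followed Junb without overlap. Fosl1 was last in all 4 groups, and Atf3 ranked 3 or 4 in LP but 8 or 9 in PP.

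Summed over the 10 genes, AP-1 family RNA came to 13143 and 10053 RPKM in LP Tcf7-KO, 12098 and 10845 in LP Tcf7+/+, 6787 and 6435 in PP Tcf7-KO and 6684 and 6161 in PP Tcf7+/+. Junb made up 73.4% and 75.8% of this sum in LP Tcf7-KO, 66.8% and 67.9% in LP Tcf7+/+, 31.97% and 30.8% in PP Tcf7-KO and 44.2% and 43.7% in PP Tcf7+/+. The sum in LP was thus mostly Junb, whereas in PP it was shared between Junb, Jun and Fos. The sum of the 4 Fos genes relative to that of the 3 Jun genes was 0.107 and 0.159 in LP Tcf7-KO, 0.229 and 0.217 in LP Tcf7+/+, 0.475 and 0.401 in PP Tcf7-KO and 0.290 and 0.280 in PP Tcf7+/+. This ratio was lower in Tcf7-KO than in Tcf7+/+ in LP and higher in PP, without overlap in either tissue. Like the ratio of Junb to Jun, it is free of the scaling between libraries, and it was looked at after the values of the members were known.

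**Figure D2:**
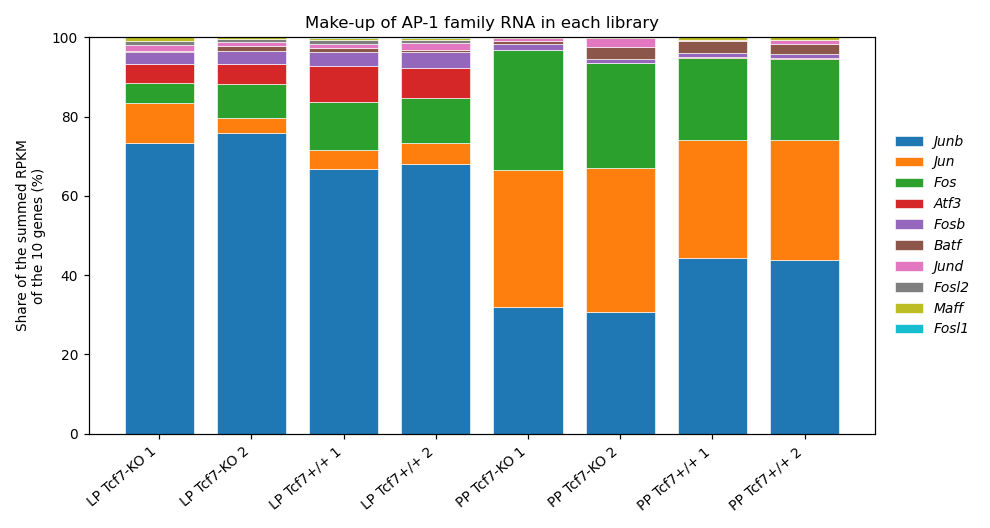
Share of each of the 10 genes in their summed RPKM, in percent, for each library. Junb takes 66.8% to 75.8% in LP and 30.8% to 44.2% in PP, where Jun and Fos take most of the rest.

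The question of the design is what the loss of Tcf7 does in LTi cells of each tissue, and for this the genotypes were compared within LP and within PP. No AP-1 family gene passed an adjusted p of 0.05 in either tissue (limma on log2(RPKM + 1) over the 10541 genes kept, Benjamini-Hochberg adjustment). In LP this stands beside 0.0285% of all genes called, and in PP beside 0.36%. At an unadjusted p under 0.05 there were 2 members in LP, beside 5.27% of all genes, and 4 in PP, beside 11.4%. Fold changes below are on the log2(RPKM + 1) scale with their standard errors. An exact permutation test of 2 against 2 libraries cannot go below a two-sided p of 0.333, so none was run.

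In LP, 4 members had both Tcf7-KO libraries below both Tcf7+/+ libraries (Fos, Fosb, Fosl1 and Atf3), a pattern shown by 20.3% of all genes, and none had both above, a pattern shown by 15.3%. Fos averaged 760 ± 155 RPKM in Tcf7-KO against 1345 ± 174 in Tcf7+/+ (SD, n = 2 each), a log2 fold change of -0.83 ± 0.20 with a limma adjusted p of 0.406. Atf3 averaged 567 ± 93.2 RPKM in Tcf7-KO against 954 ± 183 in Tcf7+/+ (SD, n = 2 each), a log2 fold change of -0.75 ± 0.42. Fosl1 had a log2 fold change of -2.67 ± 0.84 (limma adjusted p 0.643), with Tcf7-KO replicates of 0.0558 and 2.42 RPKM that lay far apart. The 7 other members had log2 fold changes between -0.65 (Batf) and 0.26 (Jun). That of Jun rests on 1 library: without replicate 1 of LP Tcf7-KO it was -0.64, and without replicate 2 it was 1.16. The median over the 10 members was -0.13, against -0.06 over all genes.

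In PP, Junb, Atf3 and Maff had both Tcf7-KO libraries below both Tcf7+/+ libraries, a pattern shown by 14.8% of all genes, and Fos, Fosl2 and Jun had both above, a pattern shown by 22.7%. Atf3 averaged 3.83 ± 0.881 RPKM in Tcf7-KO against 25.2 ± 3.82 in Tcf7+/+ (SD, n = 2 each). Its log2 fold change of -2.45 ± 0.42 had the smallest p of the members and a limma adjusted p of 0.0635. Over the 14 alternative settings this adjusted p lay between 0.0619 and 0.508 and the fold change between -2.89 and -2.26.

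Maff averaged 12.6 ± 1.48 RPKM in PP Tcf7-KO against 48.6 ± 4.11 in PP Tcf7+/+ (SD, n = 2 each), a log2 fold change of -1.86 ± 0.60 with a limma adjusted p of 0.267. Junb averaged 2074 ± 135 RPKM in PP Tcf7-KO against 2825 ± 185 in PP Tcf7+/+ (SD, n = 2 each), a log2 fold change of -0.45 ± 0.14 with a limma adjusted p of 0.248. These 3 genes kept their sign under all alternatives.

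The higher values in PP Tcf7-KO depended on the scaling. Rescaling the libraries by the median of their ratios moved the median log2 fold change of all genes in PP to -0.07, against 0.16 as deposited, and that of the interaction to 0.18, against -0.39. Fos averaged 1881 ± 247 RPKM in PP Tcf7-KO against 1305 ± 86.1 in PP Tcf7+/+ (SD, n = 2 each), a log2 fold change of 0.52 ± 0.20 with a limma adjusted p of 0.381, which became -0.06 after that rescaling. Jun had 0.27 ± 0.50, which became -0.32, and Fosb had 0.49 ± 0.35, which became -0.08. Fosl2, with 0.81 ± 0.71, and Jund, with 1.35 ± 0.77, stayed positive. Batf had -0.80 ± 0.85, and Fosl1 was near the limit of detection in both groups. The PP Tcf7-KO libraries are those with the high mitochondrial share. With mitochondrial and immunoglobulin genes taken out of the total, Atf3 had a log2 fold change of -2.32, Fos 0.65 and Junb -0.32.

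**Figure D3:**
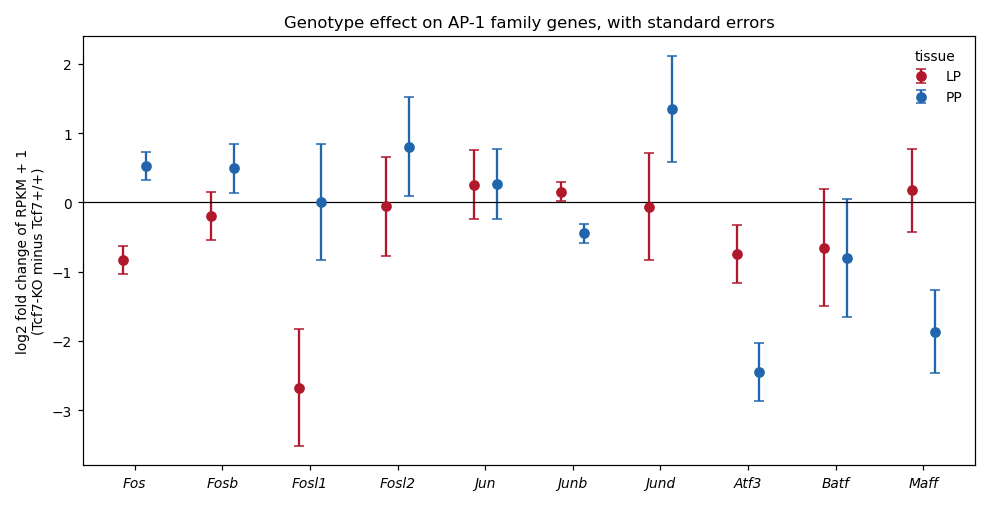
Log2 fold change of RPKM + 1 between Tcf7-KO and Tcf7+/+ for each AP-1 family gene in LP and in PP, with standard errors from the limma fit over all genes (2 libraries a group). No gene passed an adjusted p of 0.05, Atf3 in PP lies at -2.45, and Fos lies at -0.83 in LP and at 0.52 in PP, its PP value turning to -0.06 under median-of-ratios rescaling.

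Whether the genotype effect differed between the tissues was tested as an interaction, the effect in LP minus that in PP. No member passed (0.0285% of all genes did), and 4 members had an unadjusted p under 0.05, beside 8.75% of all genes. The interaction was -1.35 ± 0.29 for Fos (limma adjusted p 0.309), which was lower in Tcf7-KO in LP and higher in PP without overlap, though the PP direction turned with rescaling. It was 0.60 ± 0.19 for Junb (limma adjusted p 0.399), 1.70 ± 0.59 for Atf3 (limma adjusted p 0.442) and 2.04 ± 0.84 for Maff (limma adjusted p 0.558). These 4 kept their sign under all alternatives. For the genotype effect averaged over both tissues, 0.00949% of all genes passed and no member did. None had all 4 Tcf7-KO libraries above all 4 Tcf7+/+ libraries, a pattern of 1.66% of all genes, or all below, a pattern of 1.24%. Atf3 had -1.60 ± 0.43 there (unadjusted p 0.00386, limma adjusted p 0.690), with Tcf7-KO below Tcf7+/+ without overlap within each tissue. It was the only member with an unadjusted p under 0.05 in that comparison, beside 6.81% of all genes.

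Genes that act with AP-1 were followed in 5 lists, whose own tissue difference was not used to pick the members. This difference was tested over all genes, of which 4.33% passed an adjusted p of 0.05, 2.3% higher and 2.03% lower in LP. The lists were chosen with earlier results of these data known, so their counts beside these shares are a description only. Of 20 other factors with a basic region and leucine zipper that were kept, 4 were higher and 1 was lower in LP, with a median log2 fold change of 1.07 against -0.10 over all genes. Crem, whose product includes repressors of cyclic AMP response elements, had 686 and 1104 RPKM in LP Tcf7-KO, 822 and 992 in LP Tcf7+/+, 24.1 and 25.0 in PP Tcf7-KO and 26.9 and 31.5 in PP Tcf7+/+. Its log2 fold change was 5.0 ± 0.29 (limma adjusted p 2.15e-05). Cebpb, a factor of inflammatory gene expression, rose by 3.99 ± 0.91 (limma adjusted p 0.0354), and Atf4, the effector of the integrated stress response, by 2.95 ± 0.60 (limma adjusted p 0.0216). Batf3, a sister gene of Batf, had 35.3 to 58.1 RPKM in the LP libraries and 289 to 823 in the PP libraries, and it fell by 3.01 on the log2 scale (limma adjusted p 0.0014).

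Of 19 other immediate early genes kept, 6 were higher in LP and none was lower, with a median log2 fold change of 2.22. In sign, 16 of the 19 were positive. Negative were Egr1 (-0.65 ± 0.37), Zfp36 (-0.23 ± 0.39) and Dusp2 (-2.79 ± 1.06). Ier2 (0.22 ± 0.17) and Dusp1 (0.37 ± 0.21) were positive by little, and none of these passed. Nr4a1, an orphan nuclear receptor induced by antigen receptor and other signals, had 1317 to 1661 RPKM in LP and 22.5 to 72.5 in PP (4.82 ± 0.36, limma adjusted p 7.18e-05). Its relative Nr4a2 had 73.3 to 236 RPKM in LP and 0.559 to 3.08 in PP (6.29 ± 0.71, limma adjusted p 7.82e-04). Btg2, an antiproliferative gene, had 527 to 628 RPKM in LP and 39.99 to 74.8 in PP (3.31 ± 0.29). Ppp1r15a, whose product turns off the integrated stress response, had 346 to 427 RPKM in LP and 46.2 to 132 in PP (2.28 ± 0.30).

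Of 13 genes known as AP-1 targets that were kept, 4 were higher and 1 was lower in LP, with a median log2 fold change of 0.76. Il22, the cytokine by which these cells act on epithelium, had 4422 and 4047 RPKM in LP Tcf7-KO, 5254 and 5318 in LP Tcf7+/+, 615 and 460 in PP Tcf7-KO and 865 and 585 in PP Tcf7+/+ (2.94 ± 0.16, limma adjusted p 1.47e-05). Gadd45b, a stress-induced regulator of p38 signalling, had 1423 to 2551 RPKM in LP and 41.6 to 91.4 in PP. Plaur, the urokinase receptor, had 38.6 to 171 RPKM in LP and 0.419 to 11.6 in PP. Lta, which encodes the lymphotoxin that builds lymphoid organs and is also one of the LTi markers, had 3.57 to 51.3 RPKM in LP and 231 to 843 in PP (-4.32 ± 0.66, limma adjusted p 0.0046).

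None of the 21 kept genes of the MAP kinase and serum response pathway upstream of AP-1 and none of the 13 kept genes for AP-1 turnover, cofactors and partners of BATF passed between the tissues, with 3 and 1 genes at an unadjusted p under 0.05, beside 19.4% of all genes. Their median log2 fold changes were 0.40 and 0.52. Map2k3, a kinase that activates p38, had 1.65 ± 0.55 (limma adjusted p 0.131) and Trib1, a pseudokinase that brings proteins to degradation, had 3.71 ± 1.02 (limma adjusted p 0.0731). Elk3, a partner of serum response factor, had -2.55 ± 0.85, and Itch, a ubiquitin ligase that targets Jun proteins, had -1.85 ± 0.85, neither past the threshold.

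**Figure D4:**
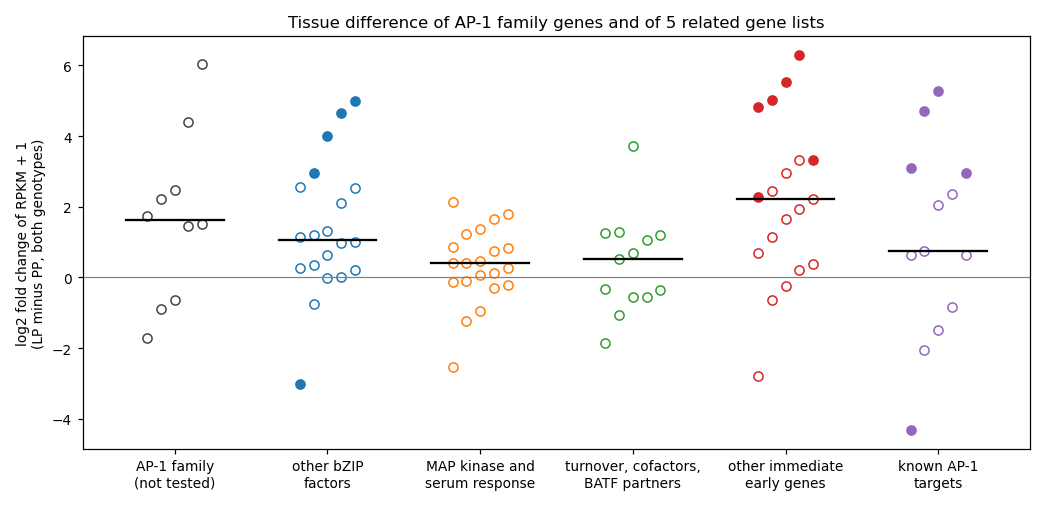
Log2 fold change of RPKM + 1 between LP and PP over both genotypes for the AP-1 family genes (not tested, since they were picked on this contrast) and the kept genes of 5 related lists. Filled points passed a limma adjusted p of 0.05 and lines are medians, which lie at 1.63 for the AP-1 family and at 2.22 for the other immediate early genes.

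Between the genotypes, 2 genes of these lists, with 20, 21, 13, 19 and 13 genes kept, passed. Both did so in PP, where 0.36% of all genes passed. Ier5, an immediate early gene, had 47.5 and 62.0 RPKM in PP Tcf7-KO against 0.314 and 0.551 in PP Tcf7+/+ (5.27 ± 0.69, limma adjusted p 0.0404). In LP it had 33.7 and 24.8 RPKM in Tcf7-KO against 94.1 and 65.3 in Tcf7+/+, and its interaction of -6.68 ± 0.98 had a limma adjusted p of 0.116. Il17a, which encodes the cytokine IL-17A and is a known AP-1 target, had 59.8 and 118 RPKM in PP Tcf7-KO against 0.810 and 1.08 in PP Tcf7+/+ (5.45 ± 0.76, limma adjusted p 0.0492). In LP it had 437 and 347 RPKM in Tcf7-KO against 15.2 and 55.6 in Tcf7+/+, without overlap (3.69 ± 0.76, limma adjusted p 0.329). With only the 2 PP groups in the fit, no gene passed and 1139 had an unadjusted p under 0.05. In LP, in the interaction and in the average over tissues, no gene of the 5 lists passed. Ier5 and Il17a, like Mafg, Nfe2l1, Mmp9, Rps6ka1 and Rps6ka3 below, were near or under 1 RPKM in PP Tcf7+/+. That group had the fewest genes at 1 RPKM, and the part of this in their fold changes was not tested.

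The list genes given here did not pass between the genotypes. At an unadjusted limma p under 0.05, LP had 2, 1, 0, 0 and 2 genes of the 5 lists, beside 5.27% of all genes. PP had 2, 4, 1, 7 and 3, beside 11.4%. The lists are in the order other zipper factors, MAP kinase pathway, turnover and partners, immediate early genes and AP-1 targets. Mafg, a small Maf gene like Maff, had 34.9 and 51.1 RPKM in PP Tcf7-KO against 0.141 and 0.124 in PP Tcf7+/+ (5.26 ± 0.88, limma adjusted p 0.0617), so that its values lay in the direction opposite to those of Maff. In LP, Mafg had 22.5 and 26.4 RPKM in Tcf7-KO against 7.23 and 11.7 in Tcf7+/+. Nfe2l1, which pairs with small Maf proteins, had 21.4 and 17.9 RPKM in LP Tcf7-KO against 0.524 and 0.351 in LP Tcf7+/+ (3.84 ± 1.17, limma adjusted p 0.609). In PP it had 7.70 and 44.4 RPKM in Tcf7-KO against 0.105 and 0.0926 in Tcf7+/+ (4.18 ± 1.17, limma adjusted p 0.218). Csf2, which encodes GM-CSF, had 234 and 122 RPKM in LP Tcf7-KO against 33.6 and 24.5 in LP Tcf7+/+ (2.52 ± 0.96, limma adjusted p 0.849). Map2k3 had 23.3 and 7.46 RPKM in PP Tcf7-KO against 73.8 and 48.8 in PP Tcf7+/+ (-2.09 ± 0.64, limma adjusted p 0.254). Its list also held Rps6ka1 and Rps6ka3. Rps6ka1 had 14.3 and 16.7 RPKM in PP Tcf7-KO against 0.0818 and 0.101 in PP Tcf7+/+ (3.91 ± 1.11, limma adjusted p 0.22). In LP it had 1.55 and 7.99 RPKM in Tcf7-KO against 13.8 and 8.77 in Tcf7+/+. Rps6ka3 had 7.86 and 9.36 RPKM in LP Tcf7-KO against 0.0118 and 0.0115 in LP Tcf7+/+ (3.24 ± 0.81, limma adjusted p 0.414). Nfatc1, a frequent partner of AP-1 on cytokine promoters, had 119 and 170 RPKM in PP Tcf7-KO against 38.1 and 74.5 in PP Tcf7+/+ (1.40 ± 0.50, limma adjusted p 0.323). Socs3, a feedback inhibitor of cytokine signalling, had 51.9 and 54.9 RPKM in PP Tcf7-KO against 151 and 109 in PP Tcf7+/+.

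Finally, the genes whose profile over the 8 libraries was most like that of 4 members were listed by the root mean square difference between log2 profiles, each centred on its own mean, among 7177 genes. For Atf3 these were Snhg15 (0.64), Hilpda, Cwc25, Lmna and Usp2 (0.94), where the median gene was at 3.56. Snhg15, a host gene of small nucleolar RNAs, had 1001 and 347 RPKM in LP Tcf7-KO, 678 and 857 in LP Tcf7+/+, 3.98 and 3.23 in PP Tcf7-KO and 61.4 and 31.0 in PP Tcf7+/+. Like Atf3 it was thus lowest in PP Tcf7-KO. For Junb they were Cnbp (0.16), Nr1d2, Arpc3, Nfkbia and Slc25a3 (0.28), against a median of 1.77. Nfkbia, the inhibitor of NF-kB, had 1713 to 1814 RPKM in LP and 343 to 869 in PP.

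For Jun the nearest were Snrk (0.22), Set, Arhgap45, Nme1 and Dnajc1 (0.31), against a median of 1.79. Snrk had 34.3 and 10.1 RPKM in LP Tcf7-KO, 14.7 and 16.1 in LP Tcf7+/+, 54.1 and 40.9 in PP Tcf7-KO and 55.7 and 41.8 in PP Tcf7+/+, and its LP Tcf7-KO replicates lay apart as those of Jun did. For Fos they were Cox7a2 (0.19), Chmp2a, Pomp, Arl6ip1 and Rpl7 (0.26), against a median of 1.62. No gene of the immediate early list and no AP-1 family member was among the 5 nearest of any of the 4. These distances describe 8 libraries and carry no test.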

How the data were processed

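RNA was measured in 8 libraries of sorted LTi cells, 2 in each of 4 groups taken from the labels. Per the labels' protocols, total RNA was made into libraries with Smart-seq2, a method that does not mark the strand. Per the submitters' processing notes, featureCounts (Subread) counted the reads against mm10; the sources used here give no version or setting. The authors deposited log2(RPKM + 1) values with 0.0001 in place of 0. Undoing log2 made 61.8% of 110 low values whole reads within 0.1 reads, against 5.59% to 19.2% for other bases. Sequencing depth was derived from what a single read is worth in 4135 genes with 1 transcript. Such reads are not independent molecules, so precision was taken from the replicates.

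Of 27179 genes, 25275 identifiers matched RefSeq GRCm38.p6, and the 10541 that reached 1 RPKM in 2 or more libraries were kept. The deposited scale has a pseudocount of 1 and was modelled as such in R 4.3.3 by limma 3.58.1 (eBayes with a trend, two-sided). A model of 4 group means (4 residual degrees of freedom) gave genotype within tissue and the interaction. An additive model (5 residual degrees of freedom) gave average effects and takes PP and LP libraries as independent. The threshold was an adjusted p of 0.05, by the Benjamini-Hochberg method across the genes kept. The fits were also run on simulated data, and the outcome of that run is not given here.

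The members, gene lists and naming rule were chosen with earlier results of these data known. The rule names every member, up to 4 passing genes a list and comparison by smallest p or, where none passed, up to 2 with the smallest p and a mean of at least 5 RPKM, and the 5 genes nearest in profile to Atf3, Junb, Jun and Fos. Alternatives were a pseudocount of 0.1, no filter, median-of-ratios rescaling, totals without immunoglobulin and mitochondrial genes, a replicate block, only the 2 groups compared, and leaving out each library. The results of 1 marker gene are not reported here.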

Additional observations from a re-analysis of the deposited data

Results flagged for a closer look

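Fos was marked because its genotype effects pointed in opposite directions in the 2 tissues. In LP both Tcf7-KO libraries lay below both Tcf7+/+ libraries, and in PP both lay above. The difference between the effects, LP minus PP, was -1.35 ± 0.29 on the log2 scale with an unadjusted p of 0.00212 and a limma adjusted p of 0.309, so it did not pass. It kept its sign under all 13 alternatives, between -1.56 and -0.55, and its adjusted p lay between 0.233 and 0.530. Under median-of-ratios rescaling the PP effect itself turned to -0.06.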

How the results depend on the processing

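No AP-1 family gene passed in any genotype comparison under any alternative, and 5 or 6 members had all LP libraries above all PP libraries in each, against 5 as reported. There were 6 with immunoglobulin and mitochondrial genes taken out of the total, and without replicate 2 of LP Tcf7-KO, replicate 2 of PP Tcf7-KO or replicate 1 of PP Tcf7+/+. Of the member values under alternatives, 635 kept their direction and, where tested, their side of the threshold, and 32 reversed. The other 3, all differences between the tissues, moved by more than the spread. A genotype value counted as kept could still shift in size. Fosl1 in LP went from -2.67 to -4.16 with a pseudocount of 0.1, and Jund in PP lay between 0.49 and 2.21.

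Counts of passing genes in the whole table were less stable. With no filter, 49 genes passed for genotype in LP, 96 in PP, 101 in the interaction, 2 in the average genotype effect and 258 between the tissues, against 3, 38, 3, 1 and 456. In LP, 0 passed with a pseudocount of 0.1, with the replicate block or with only the 2 groups compared, where 562, 510 and 830 had an unadjusted p under 0.05. In PP, 22 passed after median-of-ratios rescaling (10 higher and 12 lower, against 28 and 10), 16 with the replicate block and 0 with only the 2 groups compared. In the interaction, 1 passed after rescaling and 1 with the replicate block. Leaving out 1 library gave 0 to 3 genes in LP, 1 to 34 in PP, 0 to 2 in the interaction, 1 to 4 in the average genotype effect and 225 to 438 between the tissues. In LP, 0 or 1 gene passed without any one of the LP or PP Tcf7-KO libraries. In PP, 1 passed without either PP Tcf7-KO library, 11 without either LP Tcf7+/+ library and 23 without either LP Tcf7-KO library. In the interaction, 2 passed without replicate 1 of LP Tcf7-KO and 0 without any other library. In the average genotype effect, 3 and 4 passed without replicate 1 and 2 of LP Tcf7-KO. Between the tissues, 240 and 225 passed without replicate 1 and 2 of LP Tcf7+/+, and 279 and 295 without replicate 1 and 2 of PP Tcf7-KO. The cause was not tested. The replicate block rests on numbers alone, since replicate differences correlated by only -0.0214 to 0.0103 between groups, and it changed no call of a member.

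After median-of-ratios rescaling these log2 fold changes reversed: in PP Fos -0.059, Fosb -0.084, Fosl1 -0.0097 and Jun -0.32, in LP Fosb 0.022, Fosl2 0.16 and Jund 0.16, in the interaction Fosb 0.11 and Jun 0.79, and in the average genotype effect Fosb -0.031. Leaving out 1 library gave reversals within these ranges: in LP Fosl2 -0.49 to 0.38, Jun -0.64 to 1.16, Junb -0.017 to 0.32, Jund -0.59 to 0.47, Batf -1.62 to 0.32 and Maff -0.37 to 0.72, in PP Fosl1 -0.011 to 0.013 and Batf -1.73 to 0.12, in the interaction Jun -0.91 to 0.89 and Batf -0.82 to 1.12, and in the average genotype effect Fos -0.34 to 0.065, Fosb -0.027 to 0.27 and Jun -0.098 to 0.62. With 2 libraries a group, the spread between replicates limits what could pass, and Fosl1 in PP was near the limit of detection.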
